A study of Citrus maxima and Citrus sinensis with 8 samples.

Results

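The genes described here are those whose response to aluminum (Al) differed between 2 citrus species, either because they moved in opposite directions or because they moved in 1 species only. They were chosen by a contrast over all 8 libraries, the change under Al in C. grandis minus the change under Al in C. sinensis, on log2(FPKM + 0.1), where FPKM is the number of sequenced fragments of a gene scaled by its transcript length and by the size of the library. Of 30151 genes in the files, 20158 had a mean of at least 1 FPKM in a group and were tested, and 1107 of these (5.49%) fell into 1 of 6 classes. A gene was called in a species at a Benjamini-Hochberg adjusted p of at most 0.05 and a change of at least log2 1. Opposite genes were called in both species with unlike signs, and one-species genes were called in 1 species with a change under log2 0.5 in the other. Both had to have a difference between the responses at an adjusted p of at most 0.05.

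Root tips were taken from seedlings of Al-intolerant C. grandis 'Shatian pummelo' (Citrus maxima in the sample labels) and Al-tolerant C. sinensis 'Xuegan'. The plants grew in sand and were watered for 18 weeks with an acid nutrient solution that held 1 mM AlCl3·6H2O (+Al) or 0 mM (control). The 4 groups, C. grandis +Al, C. grandis control, C. sinensis +Al and C. sinensis control, had 2 libraries each, and each library held the pooled root tips of 5 seedlings. Error is therefore the spread between 2 such pools of 1 cultivar per species, which is all that the p-values measure. Each gene had 1 error estimate, shared by all 4 groups and drawn towards that of genes of like level. Reads of both species were mapped to the C. sinensis genome. A level in C. grandis thus depends on how well its reads map, and only changes within a species are compared between the species.

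In acid soil Al becomes soluble as a trivalent cation, which binds pectin and other polymers of the root tip wall and stops root elongation. Tolerant plants are known to keep Al out by releasing malate or citrate through ALMT and MATE transporters, and to bind what enters in the vacuole. Growth of a root tip rests on division in the meristem and on wall loosening by expansins, xyloglucan endotransglucosylases and pectin enzymes behind it.

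Summed FPKM ranged from 713378 to 859570 per library, and 17594 to 18562 genes reached 1 FPKM. The first C. grandis +Al library lay lowest in sum and its genes were shifted by a median of -0.38 log2 against the second, while the replicate shift was 0.13 in the C. grandis controls, 0.03 in C. sinensis +Al and -0.02 in the C. sinensis controls. The median absolute difference between replicates was 0.43 log2 in C. grandis +Al, 0.20 in its controls, 0.14 in C. sinensis +Al and 0.12 in its controls. The shared error does not follow this unequal spread. Adjusted p within C. grandis may thus be too small and within C. sinensis too large, which bears on the counts per species. The FPKM files carry no counts, so the depth behind a single value is unknown.

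The response to Al differed by at least log2 1 in 2720 genes (13.5% of those tested). It was higher in C. grandis in 1034 genes (5.13%) and lower in 1686 (8.36%), and 3542 genes (17.6%) passed by adjusted p alone (limma). Within the species, 960 genes rose (4.76%) and 1392 fell (6.91%) in C. grandis, against 574 that rose (2.85%) and 621 that fell (3.08%) in C. sinensis. Both species called 485 genes, 352 in the same direction and 133 in opposite directions. All 133 passed the test of the difference. Opposite changes add up in the difference and share the error estimate, so this followed from the calls and is no added evidence. A further 1867 genes were called in C. grandis alone. The difference was called by adjusted p in 1172 of them, and 707 of these moved by less than log2 0.5 in C. sinensis. In C. sinensis alone 710 genes were called, 449 with a called difference and 267 of these under log2 0.5 in C. grandis.

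The opposite genes ran mostly one way. In C. grandis 109 genes fell that rose in C. sinensis (0.541%), against 24 genes that rose in C. grandis but fell in C. sinensis (0.119%). Among one-species genes, 450 fell (2.23%) and 257 rose (1.27%) in C. grandis only, and 129 fell (0.64%) and 138 rose (0.685%) in C. sinensis only. Their responses are drawn in the scatter of the C. grandis change against the C. sinensis change.

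**Figure D1:**
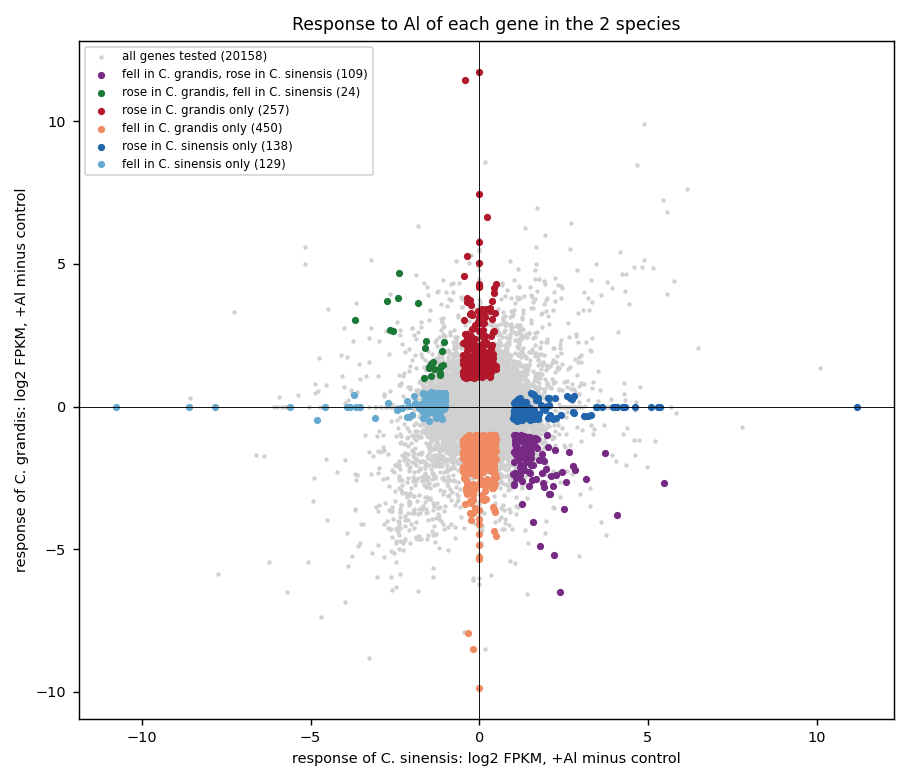
Change under Al (log2 FPKM, +Al minus control) of each tested gene in C. grandis (vertical axis) against C. sinensis (horizontal axis). Each point is 1 gene and colours mark the 6 classes; the 109 genes of the lower right quadrant fell in C. grandis and rose in C. sinensis, and the 24 of the upper left did the reverse.

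These counts depended on single libraries. The genes that fell in C. grandis and rose in C. sinensis numbered 184 without the first C. grandis +Al library and 68 without the first C. grandis control. They numbered 26 and 25 without the first and the second C. sinensis +Al library, and 33 and 26 without the first and the second C. sinensis control. For the reverse class the count was 66 without the first C. grandis +Al library, 8 and 13 without either C. sinensis +Al library, and 7 and 8 without either C. sinensis control. Genes that rose in C. grandis only numbered 730 without the first C. grandis +Al library, 139 without the second C. grandis control, 83 and 71 without either C. sinensis +Al library and 64 and 69 without either C. sinensis control. Genes that fell in C. grandis only numbered 792 without the second C. grandis +Al library, 240 and 218 without either C. sinensis +Al library and 186 and 215 without either C. sinensis control.

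For C. sinensis only, the genes that rose numbered 78 and 85 without either C. grandis control, 44 and 50 without either C. sinensis +Al library and 46 and 44 without either C. sinensis control. Those that fell numbered 202 without the first C. grandis +Al library, 69 and 73 without either C. grandis control, 58 and 62 without either C. sinensis +Al library and 65 and 53 without either C. sinensis control. The difference itself was higher in C. grandis in 2219 genes without the first C. grandis +Al library, in 683 and 532 without either C. grandis control, in 431 and 379 without either C. sinensis +Al library and in 316 and 325 without either C. sinensis control. It was lower in 1070 genes without the first C. grandis control, in 881 and 824 without either C. sinensis +Al library and in 792 and 807 without either C. sinensis control. In such fits the lone library of a group was assumed to vary like the others. Without the first C. grandis +Al library, higher responses in C. grandis outnumbered lower ones. Rises also outnumbered falls among genes that moved in C. grandis only, and both were the reverse of the main fit. With rescaling and without that library, lower responses and falls again outnumbered higher responses and rises. After rescaling by the median ratio of all genes, 92 of the 109 and all 24 opposite genes kept their class, as did 255 of 257 and 432 of 450 in C. grandis only, and 127 of 138 and 121 of 129 in C. sinensis only.

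At the limits, Cs2g14240 was the last opposite gene inside, at -1.0006 in C. grandis against 1.02 in C. sinensis (log2 changes), and Cs9g01750 the first outside, at -1.72 in C. grandis against 0.9989 in C. sinensis. Among genes called in C. grandis alone, Cs7g01980 lay just inside the limit at 0.50 (0.4984) in C. sinensis and Cs3g19600 just outside at 0.50. Among genes called in C. sinensis alone, Cs2g15270 lay inside at -0.50 (-0.4979) in C. grandis and Cs5g20520 outside at -0.50 (-0.5037). Of the 1107 genes, 543 (49.1%) carried a description, the same share as among all genes tested (49.1%). In 73 of the 1107 both libraries of at least 1 group were listed at 0, and for those no fold change is given, although medians of classes and lists include their fitted values.

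Genes that fell in C. grandis and rose in C. sinensis had a median change of -1.76 log2 in C. grandis against 1.45 log2 in C. sinensis, against 0.00 in both over all genes tested. Their median level over the libraries was 17.2 FPKM, against 10.5 FPKM for all genes tested. Ranked by the smaller of their changes in the 2 species, the 8 leading described members were 2 genes tied in Arabidopsis to jasmonate, a protease, an F-box protein, a cytochrome P450, a zinc finger protein, a DNA-binding protein and a Myb factor.

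TIFY 5A (Cs2g03240), in Arabidopsis a repressor of the jasmonate response, stood at 1.87 and 3.80 FPKM in C. grandis +Al and 26.7 and 14.5 FPKM in its controls, against 184 and 182 FPKM in C. sinensis +Al and 49.0 and 46.8 FPKM in its controls. Both +Al pools of C. grandis lay below both controls and both +Al pools of C. sinensis above theirs. The gene was chosen by calls on these same values, which makes such a separation likely, so it adds no support. The log2 change was -2.83 in C. grandis (adjusted p = 0.0013) and 1.93 in C. sinensis (adjusted p = 0.014), a difference of -4.77 ± 0.50 (SE, adjusted p = 0.0012). Sulfotransferase 2A (Cs1g16430), whose Arabidopsis namesake sulfates hydroxyjasmonate, had 0.516 and 0.262 FPKM in C. grandis +Al and 1.93 and 1.34 FPKM in its controls, against 22.1 and 22.1 FPKM in C. sinensis +Al and 5.96 and 5.96 FPKM in its controls. It changed by -1.86 in C. grandis against 1.87 in C. sinensis on the log2 scale (adjusted p of the difference 0.0018), and in C. grandis it was low throughout.

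The P450 gene Cs3g07440, of the family of haem monooxygenases, had 2.18 and 2.85 FPKM in C. grandis +Al and 24.0 and 19.1 FPKM in its controls, against 47.8 and 49.7 FPKM in C. sinensis +Al and 11.2 and 11.2 FPKM in its controls. Its change was -3.05 in C. grandis against 2.11 in C. sinensis, a difference of -5.17 ± 0.27 log2 (SE, adjusted p = 0.00010). The groups did not overlap in either species, but the gene was chosen by calls on these values, so this adds no support. Cytochrome P450 94A2 (Cs5g07230), a fatty acid hydroxylase in vetch, had 2.39 and 3.03 FPKM in C. grandis +Al and 17.9 and 15.6 FPKM in its controls, against 67.7 and 71.4 FPKM in C. sinensis +Al and 24.0 and 22.6 FPKM in its controls. The changes were -2.59 in C. grandis against 1.57 in C. sinensis (adjusted p of the difference 0.00014).

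An aspartyl protease (Cs9g06200), a class that cuts proteins with paired aspartates, was at 1.47 and 0.634 FPKM in C. grandis +Al and 6.27 and 6.99 FPKM in its controls, against 21.3 and 18.8 FPKM in C. sinensis +Al and 3.73 and 2.95 FPKM in its controls. It fell by 2.65 log2 in C. grandis and rose by 2.56 in C. sinensis. The F-box protein PP2-B15 (Cs6g14070), of the adaptors that choose targets for ubiquitin ligases, had 0 and 0.146 FPKM in C. grandis +Al and 0.667 and 0.616 FPKM in its controls, against 11.6 and 8.72 FPKM in C. sinensis +Al and 2.13 and 0.819 FPKM in its controls. The C. sinensis controls lay apart from each other, and the difference in response was -5.07 ± 0.79 (SE, adjusted p = 0.0055). In C. grandis Cs6g14070 stayed under 1 FPKM in every library, so its fall there rests on low levels.

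The Myb4-like gene Cs2g07040, in Arabidopsis a repressor of phenylpropanoid synthesis, had 0.699 and 0.793 FPKM in C. grandis +Al and 3.73 and 2.43 FPKM in its controls, against 35.8 and 27.7 FPKM in C. sinensis +Al and 7.74 and 10.9 FPKM in its controls. It changed by -1.88 in C. grandis against 1.77 in C. sinensis (log2, adjusted p of the difference 0.0014). A putative DNA-binding protein from the assembly of the authors (XLOC_025791) was listed at 0 and 0 FPKM in C. grandis +Al and 2.33 and 3.53 FPKM in its controls, against 121 and 134 FPKM in C. sinensis +Al and 42.7 and 31.6 FPKM in its controls. A zinc finger gene (orange1.1t02027) was listed at 0 and 0 FPKM in C. grandis +Al and 0.947 and 0.586 FPKM in its controls, against 5.35 and 4.88 FPKM in C. sinensis +Al and 1.26 and 1.06 FPKM in its controls. For both, C. grandis +Al was at 0 and no fold is given, and orange1.1t02027 stayed under 1 FPKM in every C. grandis library. The adjusted p of the difference was 0.00011 for XLOC_025791 and 0.0011 for orange1.1t02027.

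Of the 109 genes, 58 had no description. Cs2g20240, first of these by the smaller change, had 0.270 and 0.405 FPKM in C. grandis +Al and 6.99 and 3.70 FPKM in its controls, against 53.9 and 54.2 FPKM in C. sinensis +Al and 9.06 and 9.66 FPKM in its controls (log2 changes of -3.59 in C. grandis against 2.52 in C. sinensis). The other, orange1.1t01389, was listed at 0 in both C. grandis +Al libraries and in 1 C. sinensis control, at 1.52 and 1.09 FPKM in the C. grandis controls and 5.54 and 5.25 FPKM in C. sinensis +Al. For the 8 described and 2 undescribed genes and for Cs5g07230 the difference kept its call under every alternative that was run.

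The 24 genes that rose in C. grandis but fell in C. sinensis had a median change of 1.51 log2 in C. grandis against -1.46 log2 in C. sinensis, and 9 of them were described. The 8 named by the rule were a polyketide synthase, 2 genes of the P450 kind, 2 transport genes, 2 of stress protein families and a gene described as a DNA-binding protein.

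A type III polyketide synthase (orange1.1t05354), of the enzyme family of chalcone synthase, had 111 and 178 FPKM in C. grandis +Al and 50.6 and 60.1 FPKM in its controls, against 14.4 and 15.03 FPKM in C. sinensis +Al and 40.7 and 41.2 FPKM in its controls. It changed by 1.35 in C. grandis against -1.47 in C. sinensis, a difference of 2.82 ± 0.30 log2 (SE, adjusted p = 0.0013). The P450 gene Cs3g09040 had 6.55 and 11.1 FPKM in C. grandis +Al and 1.80 and 1.498 FPKM in its controls, against 0.168 and 0.120 FPKM in C. sinensis +Al and 0.617 and 0.631 FPKM in its controls. It changed by 2.31 in C. grandis against -1.57 in C. sinensis, where its level stayed under 1 FPKM. The secologanin synthase-like gene Cs5g14970, which also belongs to the P450s, had 12.1 and 20.9 FPKM in C. grandis +Al and 6.89 and 7.99 FPKM in its controls, against 2.75 and 2.01 FPKM in C. sinensis +Al and 4.79 and 6.02 FPKM in its controls. Its changes were 1.09 in C. grandis against -1.16 in C. sinensis (adjusted p of the difference 0.011).

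The nitrate transporter 1.5-like gene Cs7g22760, in Arabidopsis a loader of nitrate into the xylem, had 31.5 and 51.4 FPKM in C. grandis +Al and 15.3 and 16.7 FPKM in its controls, against 12.8 and 12.5 FPKM in C. sinensis +Al and 31.4 and 32.6 FPKM in its controls. Its changes were 1.33 in C. grandis against -1.34 in C. sinensis (log2, adjusted p of the difference 0.0017). The groups were apart in both species, which the choice of the gene by calls on these values makes likely. A sulfite exporter TauE/SafE family gene (Cs1g15070) had 11.7 and 15.1 FPKM in C. grandis +Al and 6.21 and 3.86 FPKM in its controls, against 1.14 and 1.38 FPKM in C. sinensis +Al and 2.68 and 3.09 FPKM in its controls. The changes were 1.42 in C. grandis against -1.14 in C. sinensis (adjusted p of the difference 0.0057).

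An abscisic acid stress ripening gene (orange1.1t05396), a family of which the rice member ASR5 takes part in Al tolerance, had 158 and 206 FPKM in C. grandis +Al and 31.6 and 43.8 FPKM in its controls, against 32.0 and 39.7 FPKM in C. sinensis +Al and 69.5 and 77.8 FPKM in its controls. It rose by 2.27 log2 in C. grandis and fell by 1.04 in C. sinensis (difference 3.32 ± 0.29, SE, adjusted p = 0.00064). Another assembled gene described as a DNA-binding protein (XLOC_007502) had 65.1 and 74.0 FPKM in C. grandis +Al and 10.4 and 10.8 FPKM in its controls, against 15.04 and 10.1 FPKM in C. sinensis +Al and 79.1 and 76.5 FPKM in its controls. The change was 2.69 in C. grandis against -2.65 in C. sinensis. The major pollen allergen Car b 1 gene (Cs9g03650), of the PR-10 family of stress proteins, was listed at 1.36 and 4.32 FPKM in C. grandis +Al and 0 and 0 FPKM in its controls, against 2.08 and 1.12 FPKM in C. sinensis +Al and 9.27 and 7.58 FPKM in its controls. With C. grandis controls at 0 it has no fold, and the adjusted p of the difference was 0.0014.

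Of the undescribed members, orange1.1t01705 had 3.57 and 1.81 FPKM in C. grandis +Al and 0.280 and 0.362 FPKM in its controls, against 11.2 and 10.9 FPKM in C. sinensis +Al and 68.1 and 63.8 FPKM in its controls. Cs3g15280 was listed at 1.44 and 0.991 FPKM in C. grandis +Al and at 0 in its controls, against 1.06 and 1.17 FPKM in C. sinensis +Al and 7.52 and 8.38 FPKM in its controls. Among the 10 genes named in this class, the difference of Cs5g14970 lost its call without the first C. grandis control, without the second C. sinensis +Al library and without either C. sinensis control (adjusted p up to 0.0745), and the other 9 kept it under every alternative. The plot of the opposite genes by library shows the 16 described genes.

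**Figure D2:**
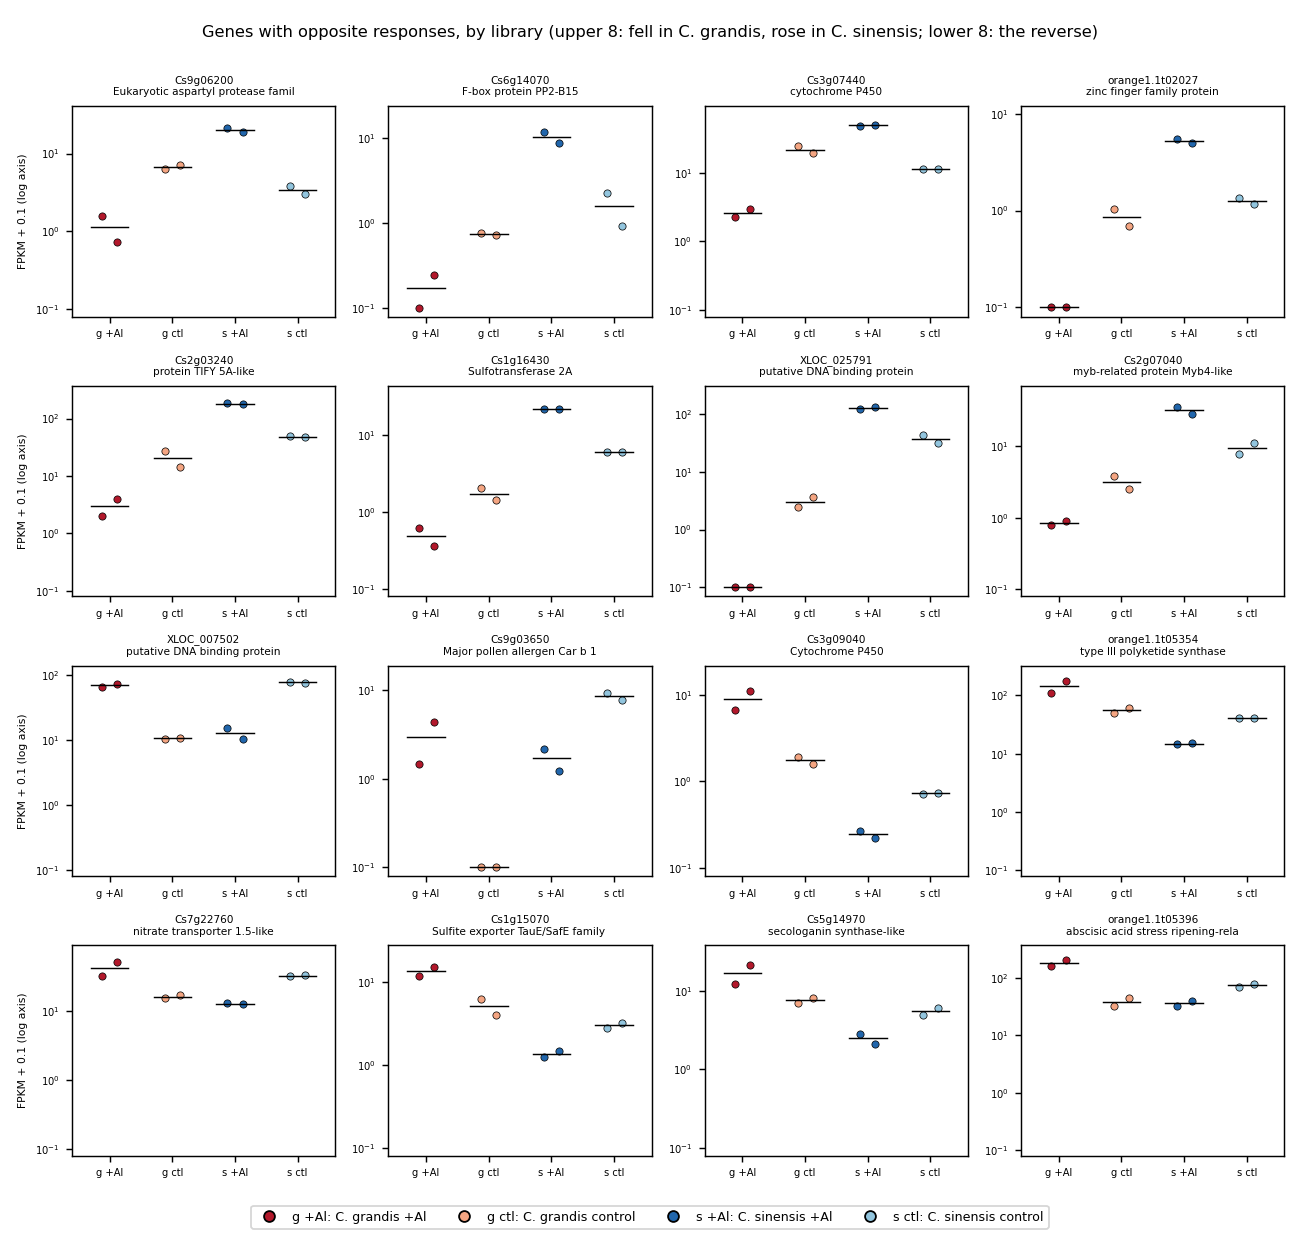
FPKM + 0.1 on a log axis in each library for the 16 described opposite genes; dots are libraries, lines the mean of the 2 libraries, and g and s stand for C. grandis and C. sinensis with +Al left of control (ctl). In the upper 8 panels C. grandis +Al lies under its controls and C. sinensis +Al above its controls, and the lower 8 panels show the reverse; XLOC_025791 and orange1.1t02027 are at 0 in C. grandis +Al and Cs9g03650 in C. grandis controls.

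Genes that moved in C. grandis only had a median change of 1.55 log2 where they rose and -1.51 log2 where they fell, beside -0.11 and 0.05 log2 in C. sinensis. Those that moved in C. sinensis only had medians of 1.35 and -1.37 log2 there, beside -0.14 and 0.04 log2 in C. grandis. Levels under 1 FPKM in both groups of the other species were found for 21 of 257 genes that rose and 12 of 450 that fell in C. grandis only, and for 20 of 138 that rose and 15 of 129 that fell in C. sinensis only. In all 4 libraries of the other species 7, 8, 15 and 11 of these genes, in the same order, were listed at 0. Such a gene cannot show a fall there, and with 1 reference genome a missing transcript and unmapped reads cannot be told apart.

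Among the genes that rose in C. grandis only, a vacuolar cation/proton exchanger 2 gene (orange1.1t04492), of antiporters that move cations into the vacuole, had 8.43 and 10.2 FPKM in C. grandis +Al and 0.640 and 0.201 FPKM in its controls, against 8.42 and 8.48 FPKM in C. sinensis +Al and 5.89 and 6.15 FPKM in its controls. The change was 4.31 log2 in C. grandis (adjusted p = 0.00028) and 0.48 in C. sinensis (adjusted p = 0.48). A chalcone and stilbene synthase family gene (Cs3g20640), of the entry step of flavonoid synthesis, had 2.34 and 12.3 FPKM in C. grandis +Al and 0.191 and 0.548 FPKM in its controls, against 0.726 and 0.683 FPKM in C. sinensis +Al and 0.885 and 1.01 FPKM in its controls. The pair of C. grandis +Al pools differed widely, and the change of 3.66 in C. grandis had an SE of 0.73. Cytochrome P450 71A1 (orange1.1t05688) was listed at 30.9 and 14.5 FPKM in C. grandis +Al and 1.43 and 0 FPKM in its controls, against 0 and 0 FPKM in C. sinensis +Al and 0 and 0 FPKM in its controls. It was above 0 in C. grandis alone, with an adjusted p of the difference of 0.041.

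A further 3 genes of this class were listed at 0 in both C. grandis controls while present in every C. sinensis library. The uncharacterized orange1.1t05272 was at 13.3 and 7.22 FPKM in C. grandis +Al and 0 and 0 FPKM in its controls, against 88.0 and 92.6 FPKM in C. sinensis +Al and 58.7 and 102 FPKM in its controls. The nicalin-1 gene XLOC_015217 was at 3.03 and 1.73 FPKM in C. grandis +Al and 0 and 0 FPKM in its controls, against 19.3 and 17.7 FPKM in C. sinensis +Al and 29.4 and 21.8 FPKM in its controls. A rae1-like gene (orange1.1t05378), named after a nuclear export factor of mRNA, was at 1.49 and 1.02 FPKM in C. grandis +Al and 0 and 0 FPKM in its controls, against 5.57 and 7.33 FPKM in C. sinensis +Al and 6.88 and 8.71 FPKM in its controls. In C. grandis both +Al pools lay above 0 in all 3, which their choice by calls on these values makes likely. In C. sinensis the groups overlapped for orange1.1t05272 and orange1.1t05378. The adjusted p of the difference was 0.00040, 0.00064 and 0.0016 for orange1.1t05272, XLOC_015217 and orange1.1t05378.

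Among the genes that fell in C. grandis only, Plant U-box 23 (Cs6g13640), a ubiquitin ligase, had 7.60 and 8.40 FPKM in C. grandis +Al and 81.6 and 71.6 FPKM in its controls, against 115 and 112 FPKM in C. sinensis +Al and 101 and 98.9 FPKM in its controls. It fell by 3.24 log2 in C. grandis (adjusted p = 1.3e-05) and its change in C. sinensis was 0.19. A CRT/DRE binding factor (Cs9g16810), of the regulators of the cold response, had 3.28 and 10.5 FPKM in C. grandis +Al and 77.7 and 79.9 FPKM in its controls, against 93.1 and 85.5 FPKM in C. sinensis +Al and 108 and 107 FPKM in its controls. Its changes were -3.72 in C. grandis against -0.27 in C. sinensis (log2). A mitochondrial-like glycine-tRNA ligase 1 gene (orange1.1t05636) was listed at 0 and 0 FPKM in C. grandis +Al and 27.6 and 47.9 FPKM in its controls, against 21.6 and 49.8 FPKM in C. sinensis +Al and 20.1 and 70.6 FPKM in its controls. Replicates differed widely in C. sinensis, and with C. grandis +Al at 0 no fold is given (adjusted p of the difference 0.0011).

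The other 3 were described as kinases. Cytokinin-regulated kinase 1 (Cs5g17510) had 0.931 and 1.07 FPKM in C. grandis +Al and 14.5 and 14.7 FPKM in its controls, against 15.1 and 13.9 FPKM in C. sinensis +Al and 16.6 and 16.1 FPKM in its controls. It changed by -3.74 in C. grandis against -0.17 in C. sinensis (log2, adjusted p of the difference 0.00028). A somatic embryogenesis receptor kinase 2-like gene (orange1.1t04474), of the co-receptor family of brassinosteroid and immune receptors, had 0.163 and 1.08 FPKM in C. grandis +Al and 11.7 and 10.9 FPKM in its controls, against 4.24 and 6.58 FPKM in C. sinensis +Al and 3.94 and 3.86 FPKM in its controls. The changes were -4.35 in C. grandis against 0.43 in C. sinensis. The L-type lectin-domain receptor kinase S.7 gene Cs7g05290 had 1.42 and 0.680 FPKM in C. grandis +Al and 16.1 and 17.7 FPKM in its controls, against 0.364 and 0.397 FPKM in C. sinensis +Al and 0.321 and 0.678 FPKM in its controls. It was under 1 FPKM in all C. sinensis libraries (changes of -3.96 in C. grandis against -0.25 in C. sinensis).

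Of these 12 genes of C. grandis, orange1.1t05688, Cs3g20640, orange1.1t04474 and Cs9g16810 lost the call of the difference under some alternatives, the loss of single C. sinensis libraries among them in each case (highest adjusted p 0.0631 to 0.144). For orange1.1t05688 this also held without either C. grandis +Al library and for Cs3g20640 without either C. grandis control.

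Among the genes that rose in C. sinensis only, a FAD-dependent urate hydroxylase-like gene (Cs1g04870) had 2.41 and 5.10 FPKM in C. grandis +Al and 3.89 and 4.94 FPKM in its controls, against 37.8 and 36.2 FPKM in C. sinensis +Al and 6.31 and 7.39 FPKM in its controls. It rose by 2.42 log2 in C. sinensis (adjusted p = 0.0046), and its change in C. grandis was -0.31. Salicylate O-methyltransferase (Cs1g24440), which makes methyl salicylate, had 1.26 and 0.553 FPKM in C. grandis +Al and 0.565 and 0.721 FPKM in its controls, against 33.5 and 32.7 FPKM in C. sinensis +Al and 4.60 and 4.61 FPKM in its controls. Its change was 0.35 in C. grandis, at a level near 1 FPKM, and 2.82 in C. sinensis. Both +Al pools of C. sinensis lay far above its controls for both genes, which their choice by calls on these values makes likely.

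The other 4 were at or near 0 in the C. sinensis controls. Peroxiredoxin-2B-like (Cs8g10680), a peroxide-reducing enzyme, had 61.9 and 76.8 FPKM in C. grandis +Al and 87.3 and 85.8 FPKM in its controls, against 2.73 and 2.16 FPKM in C. sinensis +Al and 0.165 and 0.171 FPKM in its controls. A cyclic nucleotide-gated ion channel 1-like gene (Cs9g18180), of cation channels of the plasma membrane, had 27.0 and 28.9 FPKM in C. grandis +Al and 24.9 and 22.1 FPKM in its controls, against 1.20 and 0.557 FPKM in C. sinensis +Al and 0 and 0.0871 FPKM in its controls. The gene orange1.1t04605, described as an expressed protein, had 17.9 and 19.97 FPKM in C. grandis +Al and 14.01 and 16.9 FPKM in its controls, against 0.941 and 0.748 FPKM in C. sinensis +Al and 0 and 0.108 FPKM in its controls. The changes in C. sinensis of 3.24 (Cs8g10680), 2.76 (Cs9g18180) and 2.70 (orange1.1t04605) thus rest on low levels. The cryptdin-related gene XLOC_002122 was listed at 23.3 and 24.3 FPKM in C. grandis +Al and 24.3 and 29.98 FPKM in its controls, against 0.318 and 1.05 FPKM in C. sinensis +Al and 0 in its controls.

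Among the genes that fell in C. sinensis only, aluminum-activated malate transporter 10 (Cs5g01700), of the ALMT family of anion channels, had 7.60 and 19.1 FPKM in C. grandis +Al and 9.56 and 9.29 FPKM in its controls, against 7.20 and 6.13 FPKM in C. sinensis +Al and 22.3 and 19.0 FPKM in its controls. It changed by 0.35 log2 in C. grandis, where the +Al pools straddled the controls, and by -1.62 in C. sinensis (adjusted p of the difference 0.039). The P450 gene Cs5g25060 had 2.26 and 3.63 FPKM in C. grandis +Al and 2.79 and 3.13 FPKM in its controls, against 1.12 and 0.867 FPKM in C. sinensis +Al and 5.22 and 5.17 FPKM in its controls. Its changes were -0.04 in C. grandis against -2.28 in C. sinensis. XLOC_022561 and XLOC_015546, assembled genes described only by rice locus names, changed by 0.38 and 0.38 in C. grandis and by -1.93 and -1.59 in C. sinensis.

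A CMT-type cytosine DNA-methyltransferase 3b gene (orange1.1t02074), of enzymes that keep methylation outside CG sites, was listed at 2.27 and 6.97 FPKM in C. grandis +Al and 3.92 and 7.79 FPKM in its controls, against 0 and 0 FPKM in C. sinensis +Al and 2.97 and 2.43 FPKM in its controls. An FAD/NAD(P)-binding oxidoreductase gene (orange1.1t05623) was listed at 156 and 194 FPKM in the C. sinensis controls and at 0 in the other 6 libraries. The adjusted p of the difference was 0.0086 for orange1.1t02074 and 0.00010 for orange1.1t05623, and neither has a fold.

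Of these 12 genes of C. sinensis, Cs8g10680, orange1.1t05623 and XLOC_015546 kept the call of the difference under every alternative. For the other 9, XLOC_002122, Cs1g04870, Cs9g18180, Cs1g24440, orange1.1t04605, orange1.1t02074, XLOC_022561, Cs5g25060 and Cs5g01700, it was lost under some, the loss of at least 1 C. sinensis library among them in each case (highest adjusted p 0.0599 to 0.202). The values of all 24 genes stand in the plot of one-species genes by library.

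**Figure D3:**
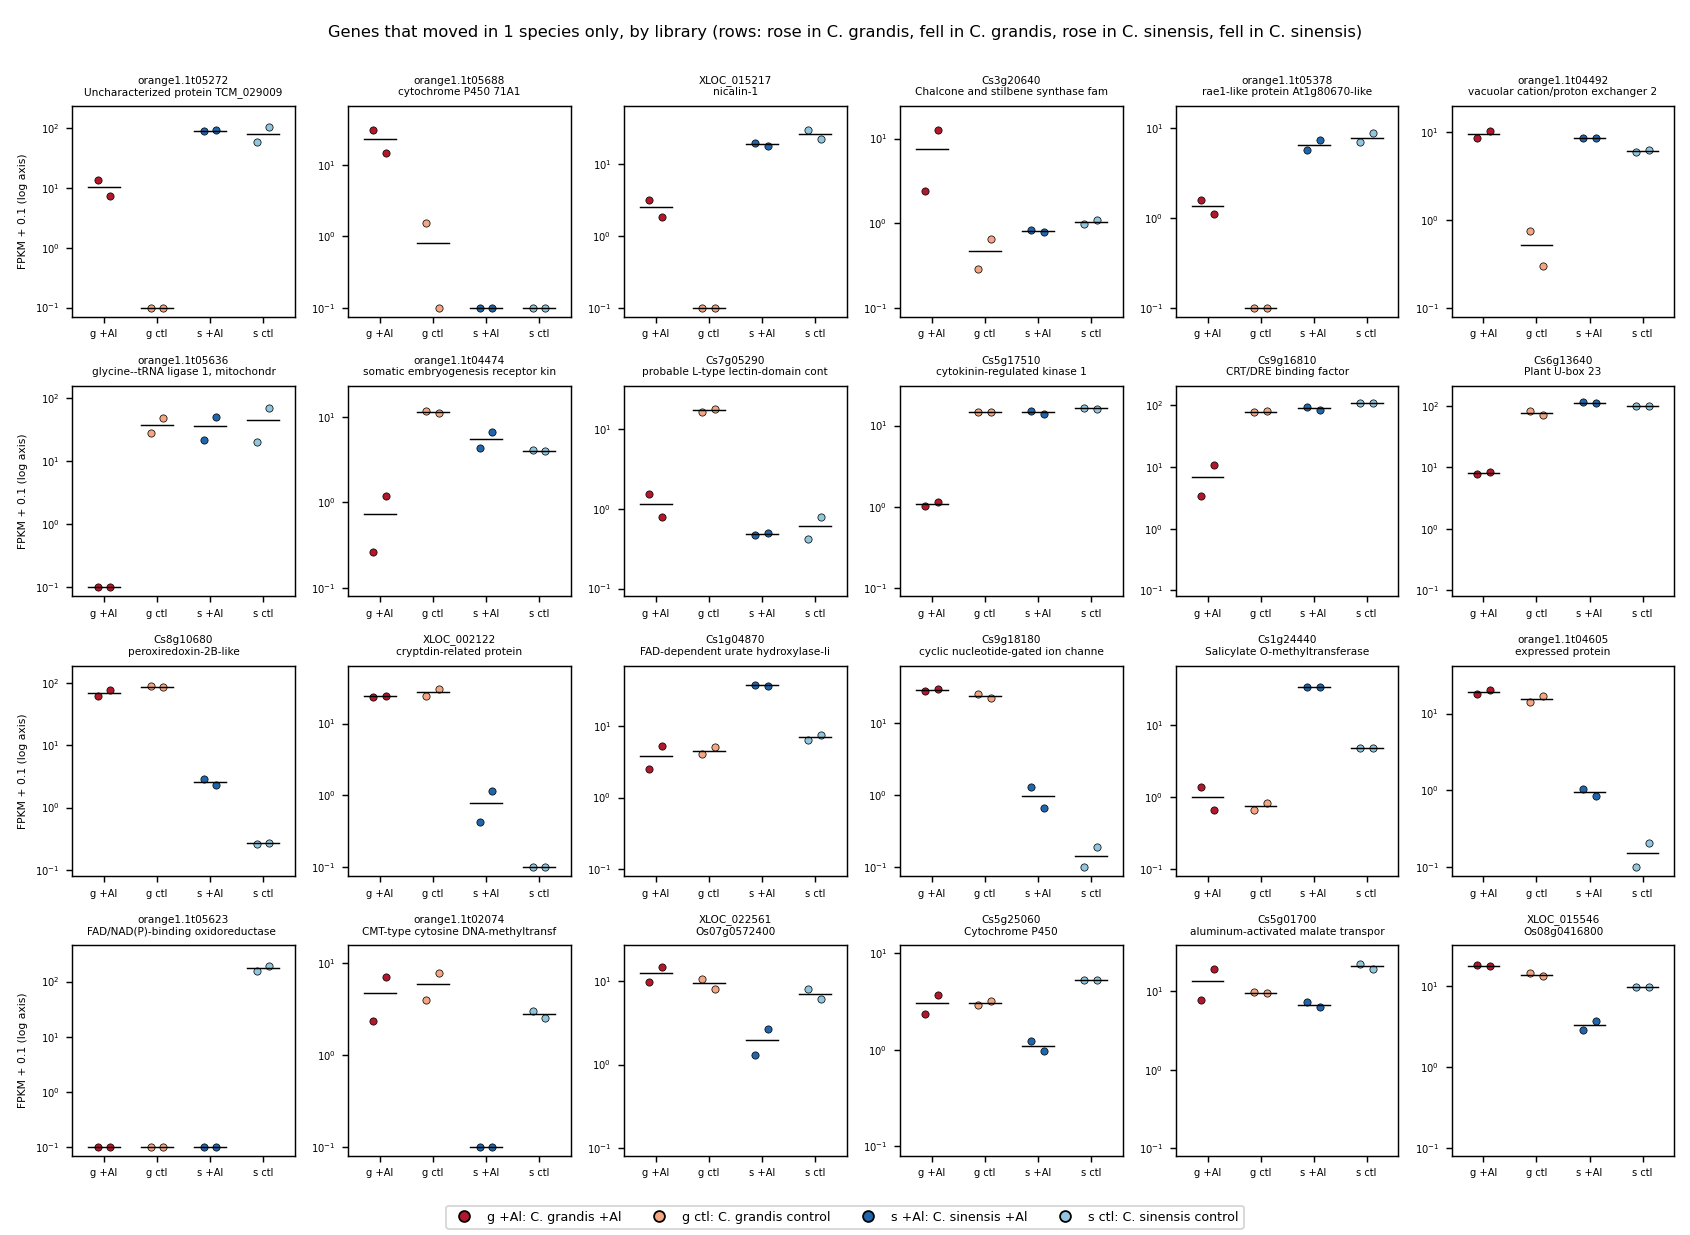
FPKM + 0.1 on a log axis in each library for 24 genes that moved in 1 species only; dots are libraries, lines the mean of 2 libraries, and g and s stand for C. grandis and C. sinensis with +Al left of control (ctl). The upper 2 rows hold 12 genes that rose or fell in C. grandis only, and the lower 2 rows 12 that rose or fell in C. sinensis only; orange1.1t05623 is above 0 only in the C. sinensis controls.

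Quantitative PCR primers designed in the study exist for 13 of the 1107 genes. They are shown for 4 genes of wall, jasmonate, malate and phosphate metabolism described below, as the only sequences of these genes in the sources used here; where they match was not checked; all letters are in lower case, 5′ to 3′, and no base is marked.
Cs4g01990 (cellulose synthase 3) forward: ttcttcacttcataaacgag
Cs4g01990 (cellulose synthase 3) reverse: aataacaagccgagcc
Cs1g17380 (Lipoxygenase 3) forward: tgccgaatgttgttagc
Cs1g17380 (Lipoxygenase 3) reverse: ggtgggaaagcctgaa
Cs4g19200 (NADP-malic enzyme 4) forward: gcacaaccttcgccaata
Cs4g19200 (NADP-malic enzyme 4) reverse: cgcctgaaaatgctccc
Cs5g29860 (phosphate transporter) forward: ggtgataagttgggtagaa
Cs5g29860 (phosphate transporter) reverse: cagaaacgaaagaagcag

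Lists drawn by keyword from the gene descriptions were then counted by class and for the difference as a whole. Over all genes tested the difference was called higher in C. grandis in 5.13% and lower in 8.36%, and its median was 0.01 log2. Counts and medians of a list are given beside these without a test. The plot of the lists shows the median change of each in both species.

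**Figure D4:**
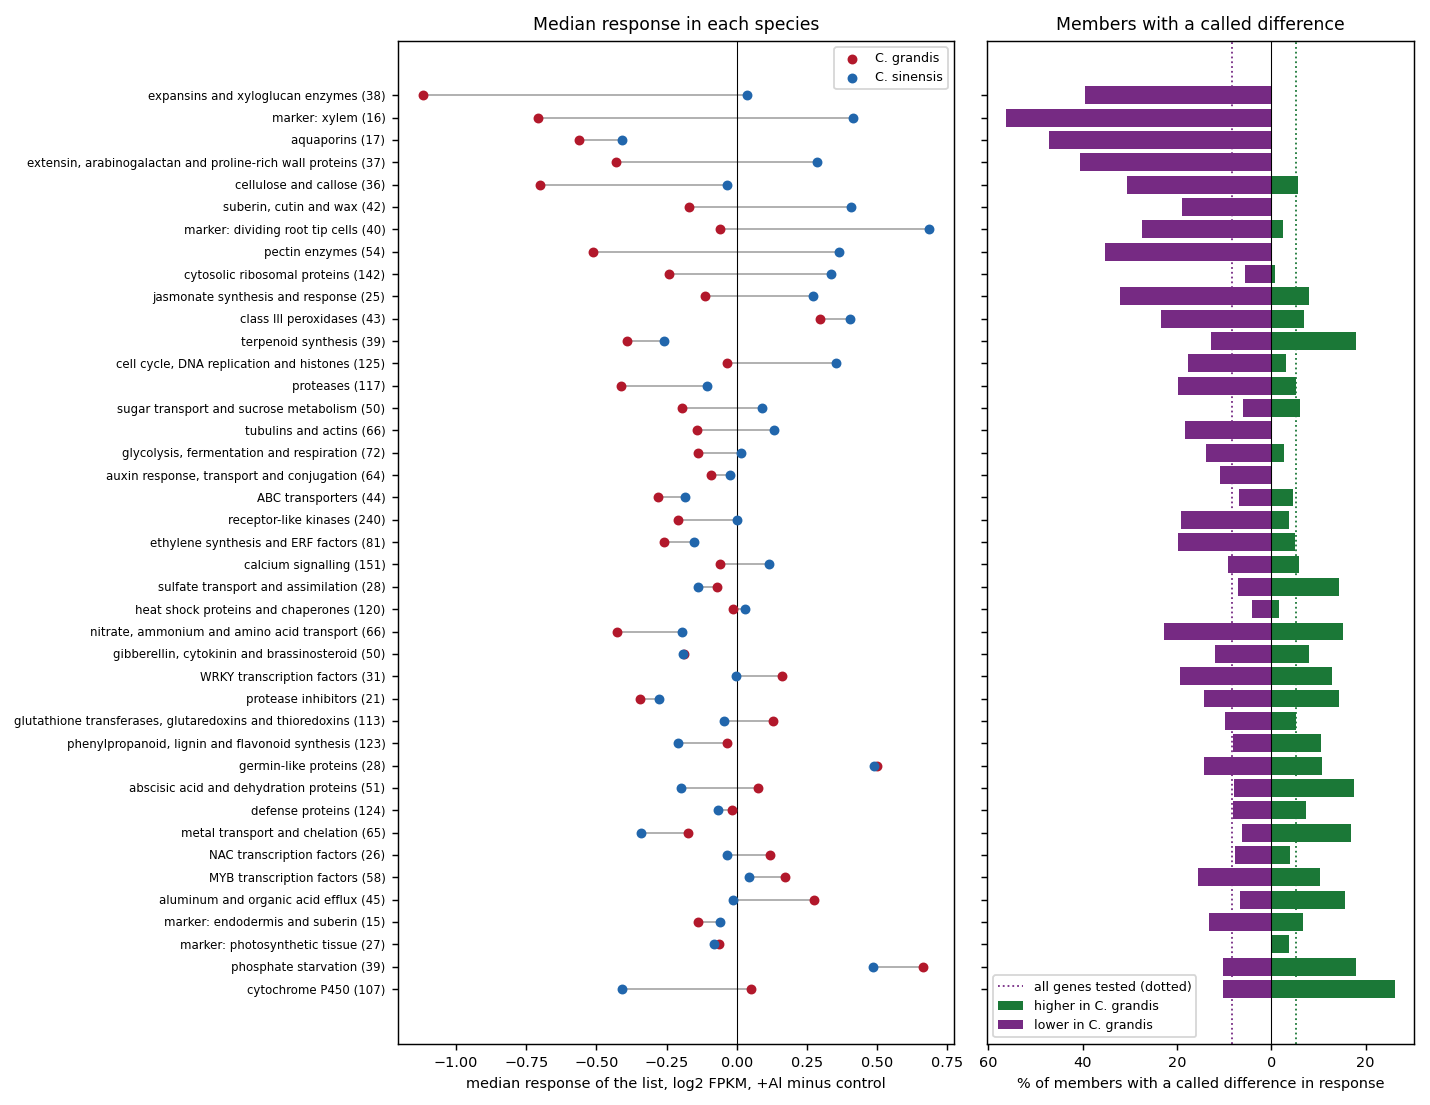
Left, median change under Al (log2 FPKM, +Al minus control) of 41 gene lists with at least 5 tested members (number in brackets) in C. grandis (red) and C. sinensis (blue). Right, percentage of members whose response was called higher (green) or lower (purple) in C. grandis, with the share over all genes tested as dotted lines; expansins and xyloglucan enzymes have medians of -1.12 and 0.04 log2 and no member called higher.

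In the lists of the cell wall, far more responses were called lower than higher in C. grandis. Of 38 expansins and xyloglucan enzymes, which loosen the wall, 15 had a lower and 0 a higher difference, and the median change was -1.12 in C. grandis against 0.04 in C. sinensis (log2). In C. grandis 18 fell and 0 rose, against 5 that fell and 2 that rose in C. sinensis. The class of genes that fell in C. grandis only held 8 of them, and 2 were opposite. Of 54 pectin enzymes and inhibitors the difference was 0 higher and 19 lower, with medians of -0.51 in C. grandis against 0.36 in C. sinensis. Of 36 cellulose and callose genes it was 2 higher and 11 lower, with medians of -0.70 in C. grandis against -0.04 in C. sinensis. Of 37 extensins, arabinogalactan and proline-rich proteins it was 0 higher and 15 lower, with medians of -0.43 in C. grandis against 0.28 in C. sinensis. The median differences of these 4 lists, -1.25, -0.78, -0.91 and -1.002 log2, kept their sign under every alternative.

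Xyloglucan endotransglucosylase/hydrolase Cs4g03140 had 18.6 and 27.9 FPKM in C. grandis +Al and 121 and 95.3 FPKM in its controls, against 187 and 174 FPKM in C. sinensis +Al and 173 and 191 FPKM in its controls. It fell by 2.23 log2 in C. grandis (adjusted p = 0.00028) and its change in C. sinensis was -0.01. The neighbouring Cs4g03130 and Cs4g03050, which bear the same description and may share reads with it, changed by -2.08 and -2.51 in C. grandis and by -0.41 and -0.46 in C. sinensis. Expansin-like Cs8g01880 changed by -1.21 in C. grandis against -0.23 in C. sinensis. Cellulose synthase 3 (Cs4g01990), which builds cellulose at the plasma membrane, had 4.41 and 5.69 FPKM in C. grandis +Al and 13.1 and 13.2 FPKM in its controls, against 27.4 and 28.2 FPKM in C. sinensis +Al and 28.4 and 27.9 FPKM in its controls. It fell by 1.37 log2 in C. grandis, and its change in C. sinensis was -0.02. Cellulose synthase-like Cs3g16380 changed by -1.73 in C. grandis against 0.45 in C. sinensis, the D3-like Cs5g25090 by -1.004 in C. grandis against -0.09 in C. sinensis, and COBRA-like protein 7 (Cs9g02720), of a family that orients cellulose, by -1.91 in C. grandis against -0.06 in C. sinensis.

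Pectinesterase 3 (Cs1g16560), which removes methyl groups from pectin and so exposes sites that bind cations, had 13.7 and 12.3 FPKM in C. grandis +Al and 46.4 and 45.8 FPKM in its controls, against 76.4 and 78.4 FPKM in C. sinensis +Al and 60.05 and 58.2 FPKM in its controls. The change was -1.82 log2 in C. grandis (adjusted p = 7.4e-05) and 0.39 in C. sinensis (adjusted p = 0.076). The pectin lyase-like Cs7g21940 changed by -1.28 in C. grandis against 0.47 in C. sinensis, the polygalacturonase-inhibiting protein Cs7g01980 by -1.55 in C. grandis against 0.50 in C. sinensis, and the invertase/pectin methylesterase inhibitor orange1.1t02719 by -1.20 in C. grandis against 0.22 in C. sinensis. Arabinogalactan protein Cs2g05930, an opposite gene, had 16.4 and 13.3 FPKM in C. grandis +Al and 32.3 and 29.3 FPKM in its controls, against 140.2 and 129 FPKM in C. sinensis +Al and 52.0 and 55.1 FPKM in its controls. It and the extensin-like Cs2g05940 next to it, at log2 changes of -1.56 in C. grandis against 1.48 in C. sinensis, fell in one species and rose in the other. The fasciclin-like arabinogalactan protein 4 gene Cs8g18440 fell in C. grandis only (-1.34 in C. grandis against -0.37 in C. sinensis), and fasciclin-like arabinogalactan protein 1 (Cs2g16140) rose in C. sinensis only (-0.43 in C. grandis against 1.06 in C. sinensis). The small fall of Cs2g16140 in C. grandis passed by adjusted p alone (limma, adjusted p = 0.035).

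Among these 16 wall genes, the call of the difference was lost under some alternatives, the loss of single C. sinensis libraries among them, for Cs4g03130, Cs4g03050, Cs8g01880, Cs4g01990, Cs5g25090 and Cs8g18440 (highest adjusted p 0.0567 to 0.131). Among the cell type markers, responses of xylem and dividing-cell genes were also called lower more often than higher in C. grandis. The dividing-cell markers had medians of -0.06 log2 in C. grandis against 0.68 in C. sinensis. Median differences of the endodermis and photosynthetic tissue markers were positive, at 0.25 and 0.315 log2. Of 16 tested xylem markers (24 in the files, 5 at 0 in every library) the difference was 0 higher and 9 lower, and their summed level was 199.7 to 200.9 FPKM in C. grandis +Al and 323 to 344 FPKM in its controls, against 704 to 716 FPKM in C. sinensis +Al and 456 to 471 FPKM in its controls. The fasciclin-like genes Cs2g16140 and Cs8g18440 belong both to the xylem markers and to a wall list, so these lists are not independent. Cs2g16140 alone had 187 and 190 FPKM in C. sinensis +Al and 95.5 and 85.3 FPKM in its controls. Xylem cysteine proteinase 1-like (Cs8g01170), a protease of dying vessel cells, changed by -1.50 in C. grandis against 0.33 in C. sinensis, and Laccase 3 (Cs8g20850), of the enzymes that polymerise lignin, by 0.01 in C. grandis against 1.25 in C. sinensis. The difference of Laccase 3 lost its call without the second C. sinensis +Al library and without the first C. sinensis control (adjusted p up to 0.0544). Of 40 tested markers of dividing cells (43 in the files, 3 at 0 in every library) it was 1 higher and 11 lower, at a summed level of 1400.0 to 1405 FPKM in C. grandis +Al and 1400.0 to 1462 FPKM in its controls, against 2428 to 2437 FPKM in C. sinensis +Al and 1706 to 1815 FPKM in its controls. Their part in the wall results was not tested. In bulk tips, fewer cells of a type and less RNA per cell cannot be told apart.

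**Figure D5:**
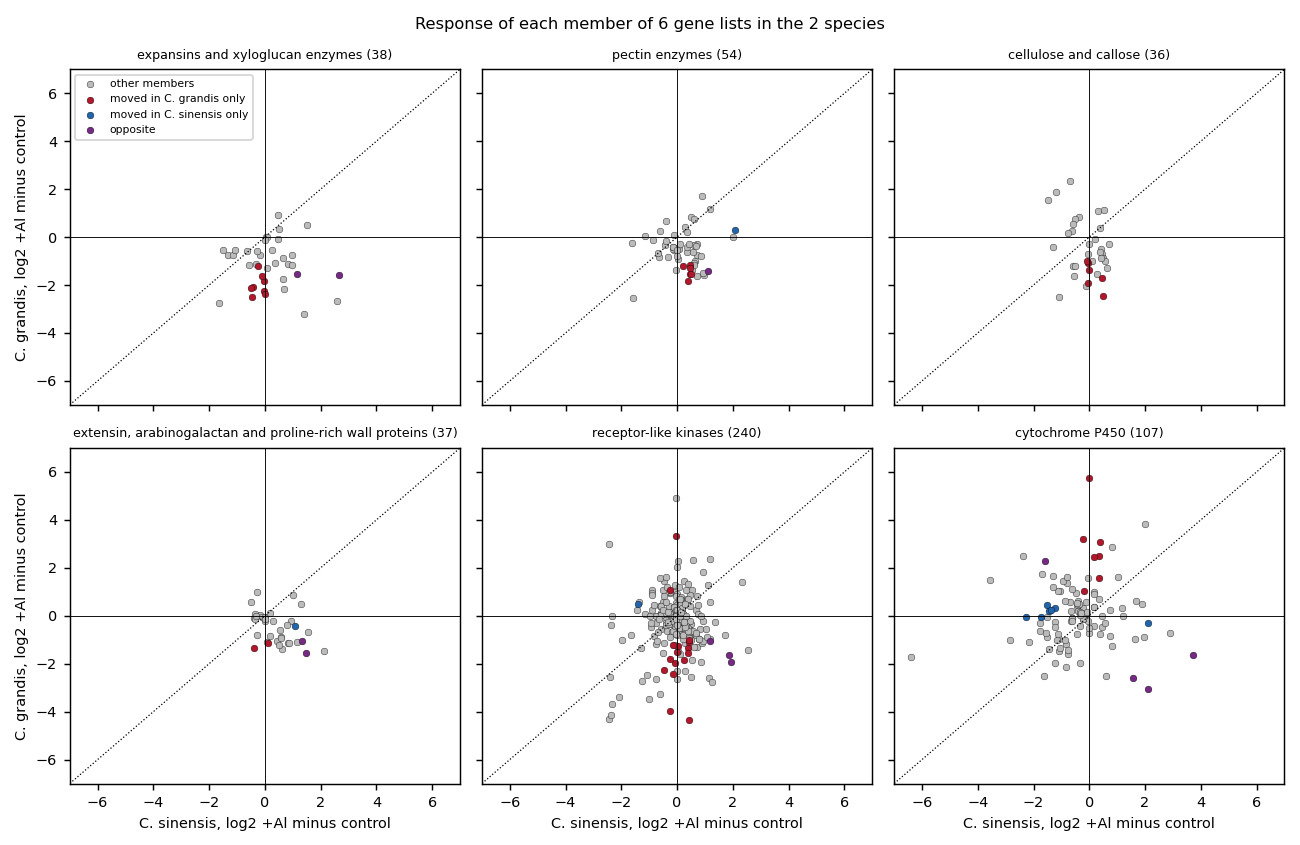
Change under Al (log2 FPKM, +Al minus control) in C. grandis (vertical axis) against C. sinensis (horizontal axis) for each tested member of 6 gene lists; the dotted line marks equal change and colours mark opposite and one-species genes. Most wall genes lie under the line, 15 of 38 expansins and xyloglucan enzymes with a called difference, while 28 of 107 cytochrome P450 genes had a higher response in C. grandis and 11 a lower one.

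More responses were also lower than higher in C. grandis among genes of division and of the cytoskeleton. The difference was 4 higher and 22 lower among 125 cell cycle, replication and histone genes (medians -0.04 in C. grandis against 0.35 in C. sinensis), and 0 higher and 12 lower among 66 tubulin and actin genes (medians -0.14 in C. grandis against 0.13 in C. sinensis). Among 142 cytosolic ribosomal protein genes it was 1 higher and 8 lower (5.63%, under the 8.36% of all genes tested), none of them belonged to any of the 6 classes, and the median change was -0.24 in C. grandis against 0.34 in C. sinensis. Within the dividing-cell markers, Aurora-1 (Cs4g18970), a mitotic kinase, rose in C. sinensis only (0.11 in C. grandis against 1.04 in C. sinensis) and histone H1 (Cs1g25120) fell in C. sinensis only (0.28 in C. grandis against -1.06 in C. sinensis). Of 17 aquaporins, the water channels, 8 were lower and 0 higher, with medians of -0.56 in C. grandis against -0.41 in C. sinensis and a median difference of -1.02 log2. Plasma membrane intrinsic protein 3 (Cs8g02530) fell in C. grandis only (-1.10 in C. grandis against 0.33 in C. sinensis). Suberin, cutin and wax genes were 0 higher and 8 lower among 42. Of the endodermis markers, casparian strip membrane protein 5 (Cs8g14760) rose in C. sinensis only (-0.38 in C. grandis against 1.20 in C. sinensis) and the CASP-like Cs1g23460 rose in C. grandis only (1.32 in C. grandis against 0.40 in C. sinensis). The summed level of the 23 endodermis markers, 2 of them at 0 in every library, was 426 to 529 FPKM in C. grandis +Al and 443 to 489.5 FPKM in its controls, against 511 to 547 FPKM in C. sinensis +Al and 478 to 484 FPKM in its controls. The difference of all 5 genes named here was lost under some alternatives, the loss of single C. sinensis libraries among them (highest adjusted p 0.0537 to 0.156), and that of Cs4g18970 and Cs8g14760 also after rescaling.

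Hormone genes differed in both directions. Of 25 jasmonate genes the difference was 2 higher and 8 lower, with medians of -0.11 in C. grandis against 0.27 in C. sinensis. Besides TIFY 5A above, Lipoxygenase 3 (Cs1g17380), in Arabidopsis an early enzyme of jasmonate synthesis, had 19.7 and 38.5 FPKM in C. grandis +Al and 154 and 134 FPKM in its controls, against 158 and 163 FPKM in C. sinensis +Al and 165 and 177 FPKM in its controls. It fell by 2.38 log2 in C. grandis (adjusted p = 0.00077), and its change in C. sinensis was -0.09. Of 81 ethylene synthesis and ERF genes it was 4 higher and 16 lower, and 6 fell in C. grandis only. The AP2/ERF gene Cs5g08360 was opposite, with 14.2 and 13.9 FPKM in C. grandis +Al and 74.5 and 73.0 FPKM in its controls, against 80.8 and 77.7 FPKM in C. sinensis +Al and 39.6 and 39.0 FPKM in its controls. ERF 2b (Cs5g33540) changed by -1.95 in C. grandis against -0.12 in C. sinensis, the more abundant Cs4g07040 by -1.61 in C. grandis against -0.48 in C. sinensis, and the AP2 domain gene orange1.1t04058 by -1.42 in C. grandis against -0.24 in C. sinensis.

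Of 51 abscisic acid and dehydration genes the difference was 9 higher and 4 lower. A COR47-like dehydrin (Cs8g01990), of proteins that protect cells in drought and cold, had 7.77 and 5.40 FPKM in C. grandis +Al and 18.5 and 10.1 FPKM in its controls, against 52.2 and 50.9 FPKM in C. sinensis +Al and 17.8 and 18.7 FPKM in its controls, and was opposite. A group 5 late embryogenesis abundant protein (Cs9g04210), among the most abundant transcripts, changed by -0.41 in C. grandis against -1.29 in C. sinensis, and its call was lost after rescaling. Of 64 auxin genes it was 0 higher and 7 lower. The auxin influx carrier Cs3g19250, which brings auxin into cells, fell in C. grandis only (-1.11 in C. grandis against 0.42 in C. sinensis), and auxin-induced protein 22D (Cs9g08100) rose in C. sinensis only (-0.05 in C. grandis against 1.36 in C. sinensis). WRKY factors, regulators of stress genes, were 4 higher and 6 lower among 31. WRKY 17 (Cs6g09420) changed by -2.24 in C. grandis against -0.03 in C. sinensis, WRKY 2 (Cs7g06320) by -1.64 in C. grandis against 0.39 in C. sinensis, and Cs2g02790 by 0.16 in C. grandis against 1.39 in C. sinensis. The Myb-like activator Cs3g23950 had 13.5 and 21.96 FPKM in C. grandis +Al and 146 and 147 FPKM in its controls, against 144 and 151 FPKM in C. sinensis +Al and 171 and 165 FPKM in its controls, and NAC 037 (Cs8g14700) changed by -2.08 in C. grandis against 0.03 in C. sinensis.

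Receptor-like kinases gave the longest list. The difference was 9 higher and 46 lower among 240 tested, 14 of which fell in C. grandis only, 2 rose in C. grandis only and 3 fell in C. grandis and rose in C. sinensis. Its median difference of -0.13 log2 turned positive without the first C. grandis +Al library. The wall-associated kinase-like orange1.1t04036, of kinases bound to pectin, had 16.9 and 22.4 FPKM in C. grandis +Al and 67.9 and 69.2 FPKM in its controls, against 61.3 and 62.2 FPKM in C. sinensis +Al and 72.0 and 75.5 FPKM in its controls. The leucine-rich repeat kinase Cs3g16610 changed by -1.27 in C. grandis against 0.03 in C. sinensis, the malectin kinase Cs6g10250 by -1.23 in C. grandis against -0.14 in C. sinensis, and the assembled receptor kinase XLOC_030045 by -1.56 in C. grandis against 0.38 in C. sinensis. Of 151 calcium signalling genes the difference was 9 higher (5.96%) and 14 lower (9.27%), near the 5.13% and 8.36% of all genes tested. In C. grandis only, 3 rose and 5 fell. The median difference of this list, -0.08 log2, turned positive without the first C. grandis +Al library. The CML31-like gene Cs5g07160, a calmodulin-like calcium sensor, had 7.16 and 16.4 FPKM in C. grandis +Al and 128 and 103 FPKM in its controls, against 87.8 and 85.7 FPKM in C. sinensis +Al and 103 and 102 FPKM in its controls. CML37 (orange1.1t04034) changed by -1.90 in C. grandis against 0.02 in C. sinensis, the EF-hand gene orange1.1t00071 by -1.15 in C. grandis against 0.21 in C. sinensis, and the calmodulin-binding Cs4g18280 by -1.63 in C. grandis against 0.28 in C. sinensis. All 4 fell in C. grandis only and kept the call of the difference under every alternative.

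Among the hormone, transcription factor and kinase genes named above, the difference lost its call under some alternatives, the loss of at least 1 C. sinensis library among them, for Cs1g17380, Cs4g07040, orange1.1t04058, Cs8g01990, Cs9g04210, Cs9g08100, Cs7g06320, Cs2g02790, Cs8g14700, Cs3g16610, Cs6g10250 and XLOC_030045 (highest adjusted p 0.0515 to 0.125).

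The cytochrome P450 list ran the other way from the wall. Of 107 tested, 28 had a higher and 11 a lower response in C. grandis, and the medians were 0.05 in C. grandis against -0.41 in C. sinensis. Within the species 17 rose and 14 fell in C. grandis, against 9 that rose and 20 that fell in C. sinensis, and the median difference of 0.54 log2 kept its sign under every alternative. Cs4g14140 rose in C. grandis only (1.56 in C. grandis against 0.36 in C. sinensis), and P450 87A6 (Cs7g15500) fell in C. sinensis only (0.19 in C. grandis against -1.46 in C. sinensis). Of 39 terpenoid genes the difference was 7 higher and 5 lower, at a median of -0.39 log2 that changed sign under 2 alternatives. In C. grandis 6 of them rose and 10 fell, against 0 that rose and 5 that fell in C. sinensis. Geranylgeranyl pyrophosphate synthase 1, which makes the precursor of carotenoids, gibberellins and chlorophyll side chains, rose in C. grandis only at 3 loci. Cs3g03640 had 29.2 and 50.4 FPKM in C. grandis +Al and 5.15 and 4.67 FPKM in its controls, against 3.85 and 3.86 FPKM in C. sinensis +Al and 3.88 and 3.18 FPKM in its controls. Cs4g20160 changed by 3.19 in C. grandis against 0.14 in C. sinensis and Cs3g03630 by 2.22 in C. grandis against -0.28 in C. sinensis. The 3 carry the same description and could share reads. Germacrene D synthase (Cs4g12050) fell in C. sinensis only (0.11 in C. grandis against -1.56 in C. sinensis). The difference was lost under some alternatives for Cs4g14140 and Cs4g12050, the loss of single C. sinensis libraries among them (highest adjusted p 0.0557 to 0.106).

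Of the genes tied to Al and organic acid efflux, 57 were in the files and 45 were tested, and the difference was 7 higher and 3 lower. The members in a class were ALMT10, described above, and a multidrug and toxin extrusion gene, where 5.49% of all genes tested were in a class. MATE 2-like (Cs9g16870), of the family that holds the citrate exporters, had 4.78 and 6.40 FPKM in C. grandis +Al and 12.5 and 14.3 FPKM in its controls, against 9.67 and 8.16 FPKM in C. sinensis +Al and 7.43 and 7.52 FPKM in its controls. It fell by 1.26 log2 in C. grandis, and its change in C. sinensis was 0.25. Phosphate starvation genes were 7 higher and 4 lower among 39, with medians of 0.66 in C. grandis against 0.48 in C. sinensis. Phosphoenolpyruvate carboxylase kinase 1 (Cs8g12690), which switches on the enzyme that feeds carbon into organic acids, had 154 and 212 FPKM in C. grandis +Al and 35.2 and 40.4 FPKM in its controls, against 26.4 and 27.9 FPKM in C. sinensis +Al and 24.5 and 22.4 FPKM in its controls. It rose by 2.26 log2 in C. grandis (adjusted p = 0.00014), and its change in C. sinensis was 0.21. The phosphate sensor SPX2 (Cs7g05340) also rose in C. grandis only (1.32 in C. grandis against 0.48 in C. sinensis). A phosphate transporter (Cs5g29860) rose in C. sinensis only, with 38.9 and 51.3 FPKM in C. grandis +Al and 47.3 and 45.5 FPKM in its controls, against 146 and 165 FPKM in C. sinensis +Al and 70.8 and 74.2 FPKM in its controls. Purple acid phosphatase 10 (Cs8g08310), a secreted phosphatase, did likewise (0.18 in C. grandis against 1.18 in C. sinensis).

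Metal transport genes were 11 higher and 4 lower among 65, and 4 fell in C. sinensis only. The heavy metal transport/detoxification gene Cs5g03070 had 81.3 and 104 FPKM in C. grandis +Al and 106 and 101 FPKM in its controls, against 34.3 and 27.1 FPKM in C. sinensis +Al and 90.1 and 91.0 FPKM in its controls. Cs3g18690 of the same description changed by 0.47 in C. grandis against -1.12 in C. sinensis, and the ZIP transporter Cs8g20480, of a family that takes up zinc and iron, by -0.20 in C. grandis against -1.36 in C. sinensis. Of 2 assembled loci described as the divalent metal transporter Nramp6, XLOC_029822 fell in C. grandis only (-1.02 in C. grandis against 0.45 in C. sinensis), and XLOC_020550 changed by -1.03 in C. grandis against 0.30 in C. sinensis, a difference that missed the threshold (limma, adjusted p = 0.058). Nitrate, ammonium and amino acid transport and assimilation genes were 10 higher and 15 lower among 66. Glutamine synthetase 2 (Cs9g05680), which fixes ammonium, fell in C. grandis only (-1.82 in C. grandis against -0.47 in C. sinensis).

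Of 72 genes of glycolysis, fermentation and respiration the difference was 2 higher and 10 lower, and 8 rose in C. sinensis, against 1 in C. grandis. NADP-malic enzyme 4 (Cs4g19200), which turns malate into pyruvate, had 55.4 and 58.7 FPKM in C. grandis +Al and 65.3 and 60.5 FPKM in its controls, against 159 and 157 FPKM in C. sinensis +Al and 65.7 and 64.5 FPKM in its controls. Its log2 change was -0.14 in C. grandis (adjusted p = 0.40) and 1.28 in C. sinensis (adjusted p = 0.00071). 6-phosphofructokinase 3 (Cs4g13070), of the committed step of glycolysis, rose in C. sinensis only (-0.16 in C. grandis against 1.13 in C. sinensis). Fructose-bisphosphate aldolase 3 (Cs2g13410) and sucrose synthase (Cs4g06850), which splits sucrose, fell in C. grandis only. They decreased by 1.06 and 1.01 log2, at changes of -0.09 and -0.30 in C. sinensis.

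Of 43 class III peroxidases, which crosslink wall polymers, the difference was 3 higher and 10 lower (23.3% lower, against 8.36% of all genes tested). Their median difference of -0.40 log2 turned positive without the first C. grandis control. Of 113 glutathione transferases, glutaredoxins and thioredoxins the difference was 6 higher and 11 lower, close to the shares over all genes tested. NADPH-dependent thioredoxin reductase A (Cs1g26810), which recharges thioredoxins, had 42.2 and 73.6 FPKM in C. grandis +Al and 278 and 261 FPKM in its controls, against 308 and 299 FPKM in C. sinensis +Al and 309 and 312 FPKM in its controls. The secretory peroxidase Cs2g03110, at 1075 and 1071 FPKM in C. grandis +Al and 2209.6 and 2275 FPKM in its controls, also fell in C. grandis only (-1.06 in C. grandis against 0.20 in C. sinensis). Peroxidase orange1.1t02033 rose in C. grandis only (1.53 in C. grandis against -0.31 in C. sinensis), and peroxidase 45-like (Cs4g03740) rose in C. sinensis only (-0.06 in C. grandis against 1.14 in C. sinensis). Of the transport, carbon and redox genes, the difference lost its call under some alternatives, the loss of at least 1 C. sinensis library among them, for Cs9g16870, Cs7g05340, Cs5g29860, Cs8g08310, Cs8g20480, XLOC_029822, Cs9g05680, Cs4g13070, Cs2g13410, Cs4g06850 and Cs4g03740 (highest adjusted p 0.0545 to 0.174).

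The remaining lists are given by their counts. Of 117 proteases 6 had a higher and 23 a lower response in C. grandis (19.7% lower, against 8.36% of all genes tested), and the median difference of -0.29 log2 kept its sign under every alternative. Within the species 5 rose and 23 fell in C. grandis, against 2 that rose and 12 that fell in C. sinensis. The difference was 4 higher and 2 lower among 28 sulfate transport and assimilation genes (median -0.04 log2). Among 44 ABC transporters it was 2 higher and 3 lower (median -0.15). Among 50 genes of sugar transport and sucrose metabolism it was 3 higher and 3 lower (median -0.23). Among 28 germin-like proteins it was 3 higher and 4 lower (median 0.10). The difference was 13 higher and 10 lower among 123 phenylpropanoid, lignin and flavonoid genes (median 0.09 log2). Among 120 heat shock proteins and chaperones it was 2 higher and 5 lower (median -0.03). Among 21 protease inhibitors it was 3 higher and 3 lower (median 0.08). The difference was 9 higher and 10 lower among 124 defense proteins (median 0.15 log2). Among 58 MYB factors it was 6 higher and 9 lower (median 0.22). Among 26 NAC factors it was 1 higher and 2 lower (median 0.18). Among 50 gibberellin, cytokinin and brassinosteroid genes it was 4 higher and 6 lower (median -0.01). The medians of these 11 lists other than the proteases each changed sign under at least 1 alternative. Photosynthetic tissue markers were 1 higher and 0 lower among 27 tested, at a summed level of 337 to 395.5 FPKM in C. grandis +Al and 373 to 396 FPKM in its controls, against 266 to 268 FPKM in C. sinensis +Al and 307 to 312 FPKM in its controls. The lists of root hair (3 tested), phloem (2) and seed storage markers (2) had no called difference.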

How the data were processed

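RNA-seq of root tips was analysed from the FPKM values that the authors deposited, 1 table per group with 2 libraries each. Per the methods of the study, the authors removed reads of low quality and ribosomal RNA (Bowtie), mapped the rest to the C. sinensis genome (TopHat2, build not given in the sources used here), assembled transcripts (Cufflinks) and tested with edgeR 3.0.0 (R 2.1.5). FPKM values carry no counts, so no count test was run.

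Genes that reached a mean of 1 FPKM in any group were fitted on log2(FPKM + 0.1) with limma 3.58.1 (R 4.3.3, trend on mean level, all 8 libraries, no block), with Benjamini-Hochberg adjustment over the 20158 genes. A fold change on this scale understates the change of low genes. Tables and plots were made with Python 3.11.15 (pandas 2.3.3, numpy 2.4.6, matplotlib 3.10.9). The fit was tested on simulated data, with 50 planted differences in response of each size. It recovered 30% of them at log2 1.5, 42% at log2 2, 74% at log2 3 and 88% at log2 5. False calls among the other genes numbered 6. Noise was drawn for each gene alone, at 1 spread for all 8 libraries. Neither a shift of a whole library nor an unequal spread between groups was simulated, so false calls from these are not shown.

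Genes named were 8 described and 2 undescribed per opposite class by the smaller change and 6 described per one-species class by the difference, among those with a mean of 5 FPKM or more somewhere and an unchanged class after rescaling. Up to 4 members of a class per list, by mean level, were named without these conditions, and Cs7g01980, Cs5g25090, Cs9g04210, Cs4g18970 and Cs8g14760 left their class after rescaling. Not every gene that the rule gave for a list is printed. Gene names come from the descriptions in the deposited tables. The members and the gene lists were chosen with earlier results of these data known. The 23 alternatives covered scaling, pseudocount, filters, limits, assembled genes, trend, replicate block, single libraries and each species fitted alone. In the last, only the calls within a species were refitted, and the difference was that of the main fit. Named genes were run under 19 of the alternatives.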

Additional observations from a re-analysis of the deposited data

Results flagged for a closer look

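No group is large enough for a search for single outlying libraries, since each held 2. The response to Al differed between the species by the test of the difference (limma, adjusted p of at most 0.05) in 1034 genes that were higher and 1686 that were lower in C. grandis by at least log2 1, and, by adjusted p alone, in the 114 genes given here. Each value below is the difference of the log2 changes, C. grandis minus C. sinensis, and was chosen by that same test.

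Genes that fell in C. grandis and rose in C. sinensis had these differences: Cs9g06200 -5.21, Cs6g14070 -5.07, Cs3g07440 -5.17, Cs2g03240 -4.77, Cs1g16430 -3.73, Cs2g07040 -3.65, Cs2g20240 -6.11, Cs2g05930 -2.38, Cs2g05940 -3.04, Cs5g08360 -3.39, Cs8g01990 -2.56 and Cs5g07230 -4.16. Genes that rose in C. grandis but fell in C. sinensis had these: XLOC_007502 5.34, Cs3g09040 3.88, orange1.1t05354 2.82, Cs7g22760 2.66, Cs1g15070 2.56, Cs5g14970 2.25, orange1.1t05396 3.32 and orange1.1t01705 5.23.

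For genes that rose in C. grandis only they were: Cs3g20640 4.04, orange1.1t04492 3.82, Cs4g14140 1.20, Cs8g12690 2.05, Cs7g05340 0.84, orange1.1t02033 1.84, Cs4g20160 3.06, Cs3g03640 2.81, Cs3g03630 2.51 and Cs1g23460 0.92. For genes that fell in C. grandis only they were: orange1.1t04474 -4.78, Cs7g05290 -3.71, Cs5g17510 -3.57, Cs9g16810 -3.45, Cs6g13640 -3.43, Cs4g03050 -2.05, Cs4g03130 -1.67, Cs4g03140 -2.22, Cs8g01880 -0.98, Cs4g01990 -1.36, Cs5g25090 -0.92, Cs3g16380 -2.18, Cs9g02720 -1.85, Cs1g16560 -2.21, Cs7g21940 -1.74, Cs7g01980 -2.05, orange1.1t02719 -1.41, Cs8g18440 -0.97, Cs1g17380 -2.29, Cs5g33540 -1.83, Cs4g07040 -1.12, orange1.1t04058 -1.18, Cs3g19250 -1.52, Cs7g06320 -2.03, Cs6g09420 -2.21, Cs3g23950 -2.90, Cs8g14700 -2.11, Cs5g07160 -3.15, orange1.1t04034 -1.92, Cs4g18280 -1.92, orange1.1t00071 -1.36, orange1.1t04036 -1.56, Cs3g16610 -1.29, Cs6g10250 -1.09, XLOC_030045 -1.94, Cs9g16870 -1.50, XLOC_029822 -1.47, Cs2g13410 -0.97, Cs4g06850 -0.71, Cs9g05680 -1.35, Cs8g02530 -1.44, Cs1g26810 -2.24, Cs2g03110 -1.27 and Cs8g01170 -1.83.

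For genes that rose in C. sinensis only they were: Cs8g10680 -3.57, Cs1g04870 -2.73, Cs9g18180 -2.51, Cs1g24440 -2.47, orange1.1t04605 -2.41, Cs2g16140 -1.49, Cs9g08100 -1.41, Cs2g02790 -1.23, Cs8g08310 -1.002, Cs5g29860 -1.15, Cs4g19200 -1.42, Cs4g13070 -1.30, Cs4g03740 -1.21, Cs8g20850 -1.25, Cs4g18970 -0.93 and Cs8g14760 -1.58. For genes that fell in C. sinensis only they were: XLOC_022561 2.31, Cs5g25060 2.24, Cs5g01700 1.97, XLOC_015546 1.97, Cs7g15500 1.65, Cs8g20480 1.16, Cs3g18690 1.59, Cs5g03070 1.39, Cs4g12050 1.67, Cs1g25120 1.34 and Cs9g04210 0.87.

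Genes listed at 0 in both libraries of a group are given by the adjusted p of the difference (limma): orange1.1t02027 0.0011, XLOC_025791 0.00011, orange1.1t01389 0.0071, Cs9g03650 0.0014, Cs3g15280 0.00041, orange1.1t05272 0.00040, orange1.1t05688 0.041, XLOC_015217 0.00064, orange1.1t05378 0.0016, orange1.1t05636 0.0011, XLOC_002122 0.016, orange1.1t05623 0.00010 and orange1.1t02074 0.0086.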

How the results depend on the processing

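Without 1 library at a time, genes that fell in C. grandis and rose in C. sinensis numbered 25 to 184 and the reverse 7 to 66. Genes that rose in C. grandis only numbered 64 to 730 and those that fell 186 to 792, while in C. sinensis only 44 to 191 rose and 53 to 202 fell. Responses called higher in C. grandis numbered 316 to 2219 and lower 792 to 2365. Rescaling by the median ratio gave 37 genes that rose in C. grandis but fell in C. sinensis and 412 that rose in C. grandis only. With the first C. grandis +Al library also left out, 224 genes fell in C. grandis and rose in C. sinensis, 52 did the reverse, 505 rose in C. grandis only and 1624 responses were higher in C. grandis. With the second left out, 412 rose in C. grandis only. A pseudocount of 1 gave 13 genes that rose in C. grandis but fell in C. sinensis. The cause of these shifts was not tested.

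The fold limits set class sizes directly. At log2 2 the opposite classes held 15 and 6 genes, the C. grandis-only classes 78 (rose) and 112 (fell), the C. sinensis-only classes 32 (rose) and 20 (fell), with 312 higher and 594 lower responses. By adjusted p alone the opposite classes held 393 and 107, the C. grandis-only classes 406 and 841 and the C. sinensis-only classes 310 and 265. With a limit of log2 0.25 in the other species, 139 rose and 249 fell in C. grandis only and 77 rose and 80 fell in C. sinensis only, and with log2 1 these counts were 398, 680, 231 and 195.

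Replicate numbers do not pair the libraries: same-numbered libraries deviated with r = 0.02 in C. grandis against -0.01 in C. sinensis over 20158 genes. With the replicate block, 538 responses were higher in C. grandis, 15 genes rose in C. grandis but fell in C. sinensis, 126 rose in C. grandis only, and 68 rose and 70 fell in C. sinensis only.

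Of 2158 values over the 114 named genes and 19 alternatives, 1889 kept their call and 269 lost it, and none changed sign. By library, 1 and 2 genes lost the call without the first and the second C. grandis +Al library, 24 and 22 without the C. grandis controls, 34 and 44 without the C. sinensis +Al libraries and 48 and 43 without the C. sinensis controls. Of the 114 genes, 63 kept it throughout. With each species fitted alone, the difference was that of the main fit, so its 114 values could not change. All 114 genes had been chosen by the test of the difference, so kept signs add no support. With 2 pools per group and no counts, the depth behind a low value is unknown.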

Other observations

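The study grouped genes that it had called on these libraries into tables by function. Since the choice used the same values, they are not independent evidence of a direction, and a limit on calls raises the share of called genes in them. The table of cell wall and cytoskeleton genes had 10 higher and 84 lower responses in C. grandis among 162 tested (median difference -1.49 log2). That of transport genes had 53 higher and 48 lower responses in C. grandis among 176 tested (median difference 0.18 log2).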
